A study of Mus musculus with 35 samples.

Results

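The transcripts described here are those of 10 CC chemokines, Ccl2, Ccl3, Ccl4, Ccl5, Ccl6, Ccl7, Ccl9, Ccl12, Ccl17 and Ccl22, in cultured mouse macrophages that were exposed to an inflammatory stimulus with or without a glucocorticoid. They were found as the Ensembl identifiers that carry these symbols, 1 identifier each, 10 of the 47069 identifiers in the expression files, and the list was drawn up with earlier results of these data known. Bone marrow-derived macrophages (BMDMs) of C57BL/6 mice, wild-type (WT) or labelled AMPKα1-/-, which had all been grown in L929-conditioned medium, received 6 treatments for 24 h. These were vehicle, dexamethasone (Dex, 100 nM), lipopolysaccharide (LPS, 100 ng/ml), LPS + Dex, damage-associated molecular patterns (DAMPs, 1 µg/ml) and DAMPs + Dex at the same doses. Each of the 12 groups has 3 libraries, except WT LPS, for which the samples hold replicates 2 and 3 only, giving 17 WT libraries and 18 labelled AMPKα1-/-. The vehicle was DMSO according to the study's methods, which describe N as cultures or data from individual mice. Values are FPKM (fragments scaled to gene length and library size), and the library totals behind them, inferred from the smallest steps between low values, ran from 15837203 to 31955298 fragments, with a median of 19973568.

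The labels were checked against the data before any comparison. All 8 macrophage markers had a mean of at least 1 FPKM, with summed levels in each library of 15410 to 40580 FPKM, most of it from Lyz2 (lysozyme). Adgre1, which encodes F4/80, lay between 473.8 and 2751 FPKM, and Csf1r, the receptor for the growth factor M-CSF, between 196.7 and 683.6 FPKM. Markers of dendritic cells summed to at most 1.94 FPKM in any library, those of T, B and NK cells to at most 2.05 FPKM, and those of mast cells, basophils and eosinophils to at most 1.16 FPKM. Fibroblast markers reached 14.8 FPKM. Neutrophil markers reached 1148 FPKM in a WT LPS + Dex library, of which S100a8 made up 1147 FPKM. Both lists are described further below. Prkaa1, the gene for AMPKα1, did not differ between the genotypes in the way the label says. It measured 15.9, 11.8 and 15.3 FPKM in WT vehicle libraries and 14.8, 16.5 and 15.4 FPKM in vehicle libraries labelled AMPKα1-/- (log2 difference 0.12 ± 0.23, adjusted p = 1, limma). With Dex it measured 26.1, 23.2 and 19.1 FPKM in WT and 21.5, 14.0 and 20.4 FPKM in the libraries labelled AMPKα1-/-. With LPS the values were 15.3 and 10.4 FPKM in WT against 9.05, 11.2 and 10.5 FPKM. The genotypes overlapped in all 3 treatments. With LPS + Dex, Prkaa1 measured 20.5, 13.7 and 8.59 FPKM in WT and 12.5, 12.9 and 9.65 FPKM in the others. With DAMPs it measured 17.9, 12.4 and 11.03 FPKM against 10.7, 15.8 and 16.4 FPKM, and with DAMPs + Dex 20.9, 12.5 and 19.5 FPKM against 21.8, 20.0 and 24.0 FPKM. A value summed over the whole gene does not show whether a targeted exon is missing, so the second genotype is called "labelled AMPKα1-/-" throughout.

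CC chemokines are small secreted proteins with a pair of adjacent cysteines that guide leukocytes by binding seven-transmembrane receptors. Ccl2 and Ccl7 attract monocytes through Ccr2, as does Ccl12 in the mouse. Ccl3, Ccl4 and Ccl5 attract monocytes and T cells, and Ccl3 and Ccl5 can act through Ccr1. Ccl6 and Ccl9 are rodent chemokines that act through Ccr1, and Ccl17 and Ccl22 attract Th2 cells, regulatory T cells and other Ccr4-bearing cells. In macrophages, LPS is sensed by Toll-like receptor 4, which activates NF-κB, interferon regulatory factors and AP-1. Dex is a ligand of the glucocorticoid receptor, a transcription factor that both activates and represses genes.

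In GENCODE release M21 (GRCm38) the 10 genes lie in 3 groups. Ccl2 (chromosome 11, 82035571 to 82037453), Ccl7 (82045712 to 82047525) and Ccl12 (82101845 to 82103400), all on the plus strand, span 67.8 kb. Ccl5 (83525778 to 83530518), Ccl9 (83572919 to 83578636), Ccl6 (83587882 to 83593087) and Ccl3 (83647844 to 83649355) on the minus strand and Ccl4 (83662584 to 83664683) on the plus strand lie within 139 kb further along chromosome 11. The gap from Ccl9 to Ccl6 is 9.24 kb and that from Ccl3 to Ccl4 13.2 kb. Ccl22 (chromosome 8, 94745590 to 94751699) and Ccl17 (94810453 to 94812036), both on the plus strand, span 66.4 kb. On the opposite strand, Gm17268 overlaps Ccl2 and was listed at 0 FPKM in every library. E230016K23Rik overlaps Ccl6 and measured 0 to 0.888 FPKM. Whether the counting used strand is not given in the sources used here, so the reads of these overlapping genes cannot be told apart.

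The bases just before the start are printed for 3 genes whose levels went separate ways below. Ccl17 was the member that rose with Dex alone in both genotypes. Ccl9 and Ccl6 are neighbours, of which Ccl6 fell with LPS and Ccl9 did not. Of the 10 members, 6 had an entry in the RefSeq promoter table (GRCm38.p6): Ccl3, Ccl6, Ccl9, Ccl12, Ccl17 and Ccl22. Ccl2, Ccl4, Ccl5 and Ccl7 are named only. Each run below is the 250 bases before the start on the gene's strand, and capitals mark matches to the motifs searched.
Ccl17, chr8:94810203-94810452, plus strand: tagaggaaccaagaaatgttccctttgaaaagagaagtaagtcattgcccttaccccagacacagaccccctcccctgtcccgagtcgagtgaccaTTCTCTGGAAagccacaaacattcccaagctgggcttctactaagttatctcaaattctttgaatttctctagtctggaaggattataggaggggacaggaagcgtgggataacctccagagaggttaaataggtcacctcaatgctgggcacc
Ccl9, chr11:83578637-83578886, minus strand: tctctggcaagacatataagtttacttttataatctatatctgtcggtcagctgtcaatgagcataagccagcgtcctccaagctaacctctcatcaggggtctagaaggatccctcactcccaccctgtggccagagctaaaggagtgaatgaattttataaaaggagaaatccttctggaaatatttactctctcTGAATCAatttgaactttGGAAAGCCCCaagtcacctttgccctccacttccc
Ccl6, chr11:83593088-83593337, minus strand: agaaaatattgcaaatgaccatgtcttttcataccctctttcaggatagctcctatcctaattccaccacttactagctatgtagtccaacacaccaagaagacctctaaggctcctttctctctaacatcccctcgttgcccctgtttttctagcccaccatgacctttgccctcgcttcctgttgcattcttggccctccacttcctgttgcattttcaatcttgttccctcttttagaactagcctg

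Motifs were searched on both strands of the whole window, 250 bases before to 50 after the start: the kappa B motif, the AP-1 motif TGANTCA, interferon response letters (GAAA, 2 free bases, GAAA), STAT letters (TTC, 4 free bases, GAA) and the glucocorticoid response motif. In Ccl9 the kappa B motif was found at −35 to −26 relative to the start and the AP-1 motif at −53 to −47, without overlap between the 2 matches. In Ccl17 the STAT letters were found at −154 to −145. None of these letters were found in the other 4 windows, and the glucocorticoid response motif was in none of the 6. Of all 32851 windows in the table, 8.46% held the kappa B motif, 7.81% the AP-1 motif, 3.44% the interferon response letters, 6.95% the STAT letters and 0.475% the glucocorticoid response motif. Ccl6 and Ccl9 shared 41 of 60 bases (68.3%) in their best ungapped stretch of that length, while no other pair of the 6 windows shared more than 32 of 60 (53.3%). A match is a description of letters and not a bound site.

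In vehicle-treated WT macrophages, Ccl9 (mean 231.3 FPKM, range 196.9 to 291.9) and Ccl6 (mean 160.3 FPKM, range 91.3 to 216.1) were the most abundant of the 10 per length, and their ranges overlapped. Ccl3 (32.1 FPKM) and Ccl5 (23.1 FPKM) followed with overlapping ranges, then Ccl4 (12.1 FPKM) and Ccl2 (4.71 FPKM). Ccl7, at 1.53 FPKM, overlapped Ccl12, which like Ccl17 and Ccl22 had a mean below 1 FPKM. The same order held in the vehicle libraries labelled AMPKα1-/- down to Ccl7, from Ccl9 at 225.9 FPKM and Ccl6 at 80.9 FPKM to Ccl7 at 0.689 FPKM. The summed level of the 10 was 349.1 to 590.1 FPKM in WT vehicle libraries. With LPS it was 8930 and 16820 FPKM, and with LPS + Dex 1281 to 5596 FPKM. In bulk RNA, fewer cells that make a transcript and less of it per cell cannot be told apart, and this holds for every comparison here. Fold changes and standard errors (SE) are those of log2(FPKM + 1), which understates the change of weakly expressed genes, and a gene is called higher or lower at an adjusted p under 0.05 (limma, 2-sided, Benjamini-Hochberg over the 11354 genes tested).

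**Figure D1:**
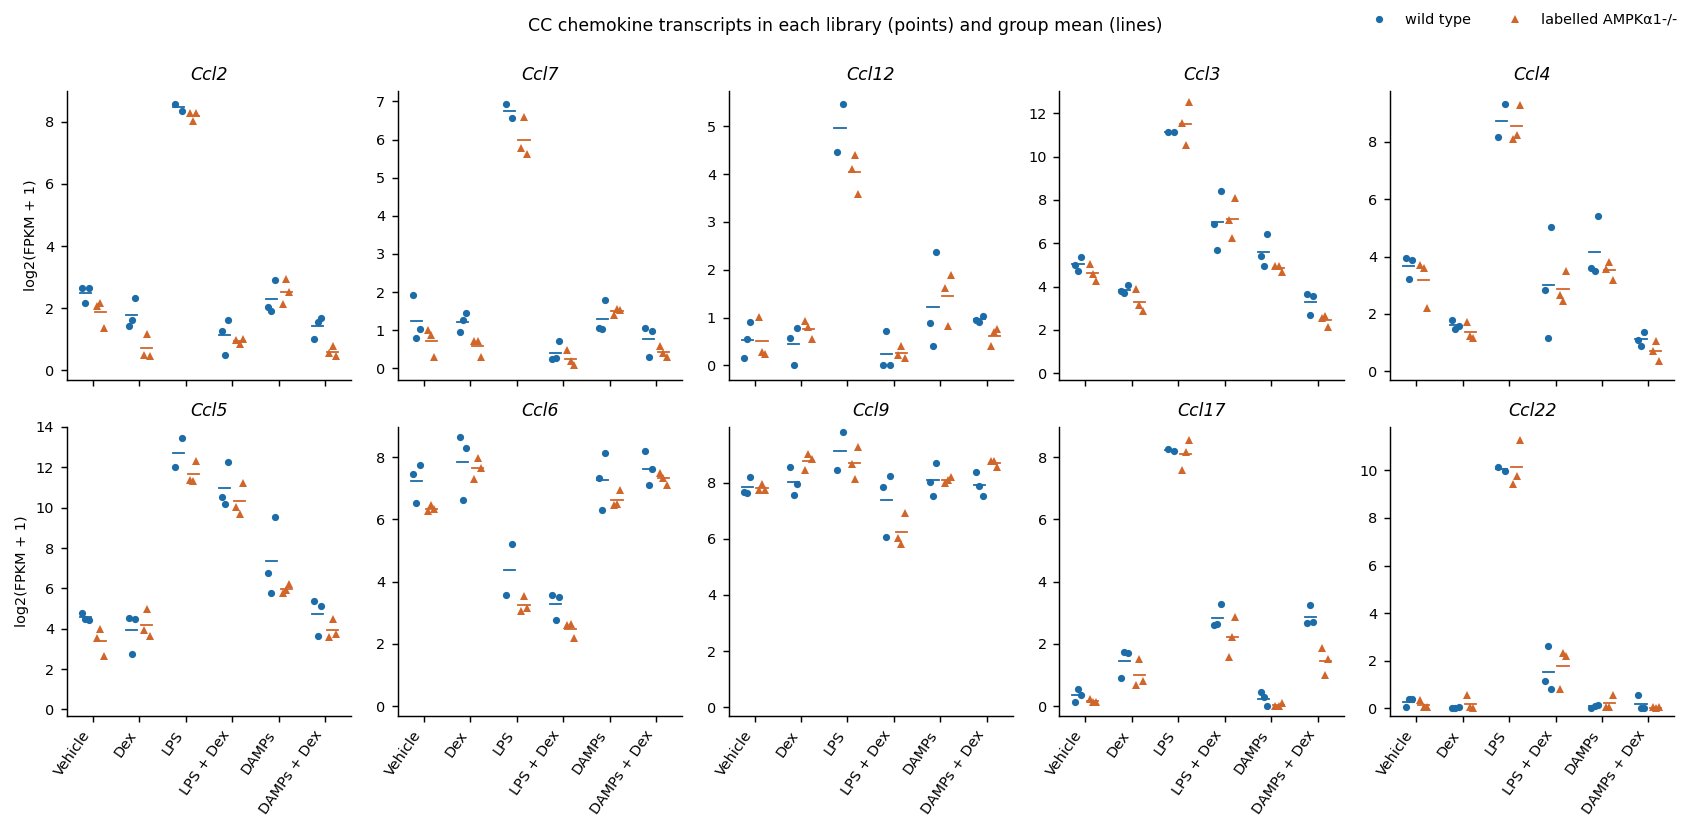
Levels of the 10 CC chemokine transcripts as log2(FPKM + 1) (vertical axis) under the 6 treatments (horizontal axis). Each point is 1 library, circles WT and triangles labelled AMPKα1-/-, and each line is a group mean. Ccl2, Ccl7, Ccl12, Ccl4, Ccl17 and Ccl22 drop back from LPS to low levels with LPS + Dex, whereas Ccl5 stays at 816.5 FPKM or more in all 6 LPS + Dex libraries.

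LPS raised 9 of the 10 members in WT and 8 in the libraries labelled AMPKα1-/-, and lowered Ccl6 in both. Genes were tested if their mean over the 35 libraries was at least 1 FPKM. Ccl7, Ccl12 and Ccl22 had medians of 0.977, 0.728 and 0.113 FPKM, so their passing of this filter leans on the LPS libraries. The counts of members higher with LPS, and those lower with LPS + Dex against LPS, are thus partly set by the filter. The background over all genes tested was 19.9% higher and 35.8% lower in WT, and 20.2% higher and 44.1% lower in the other genotype. The median log2 change of the members was 5.73 in WT and 5.85 in the other genotype, beside −0.19 and −0.30 over all genes. With libraries centred on one median, which removes that overall shift, the WT split of all genes moved from 2258 higher and 4068 lower to 2886 and 3351, and the other from 2295 and 5004 to 3361 and 3504.

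Adding Dex to LPS lowered 8 of the 10 members in each genotype and raised none, beside a background of 17.5% lower and 16.6% higher in WT and 18.4% lower and 19.3% higher in the other genotype. The median log2 change of the members was −5.05 in WT and −5.03 in the other genotype. A member is said below to escape Dex when it was called higher with LPS and was not called lower with LPS + Dex against LPS. Under that rule Ccl5 alone escaped, in both genotypes, and the other member not called lower was Ccl6, which LPS had not raised. For LPS + Dex and LPS in the libraries labelled AMPKα1-/-, same-numbered libraries deviated together and were taken as pairs, as they also were for LPS, LPS + Dex and Dex against vehicle but not in the DAMPs comparisons. With the replicate number as a block, both Ccl5 (adjusted p = 0.0469) and Ccl6 (adjusted p = 0.0109) were called lower there, so the escape of Ccl5 there rests on the fit without the block. In WT, where 2 same-numbered libraries do not establish pairs, the block called Ccl5 and Ccl6 lower as well. With the block Ccl5 thus escaped in neither genotype. The WT non-calls of both genes also changed with single libraries. The LPS libraries enter both the rise and the fall, and the vehicle libraries enter every comparison with vehicle, so these comparisons are not independent of each other.

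Compared with vehicle, 4 members stayed higher with LPS + Dex in each genotype, namely Ccl3, Ccl5, Ccl17 and Ccl22. The background was 17.2% higher and 37% lower in WT, and 16.7% and 40.8% in the other genotype. Centring moved those splits from 1952 higher and 4205 lower to 2890 and 2850 in WT, and from 1892 and 4628 to 3060 and 2948. Ccl2 and Ccl6 were lower than vehicle in both genotypes, Ccl7 in WT, and Ccl9 in the libraries labelled AMPKα1-/-. Ccl4 and Ccl12 were not called on either side of vehicle.

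**Figure D2:**
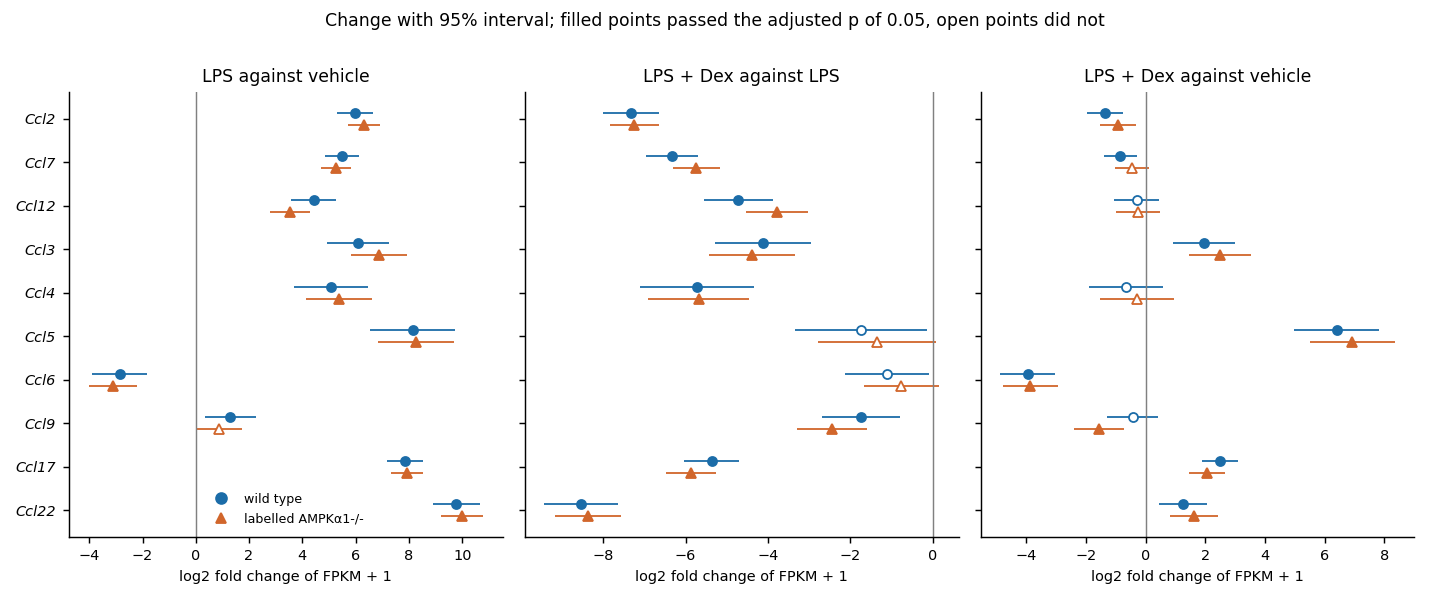
Log2 fold change of FPKM + 1 (horizontal axis) with its 95% interval for the 10 members (vertical axis) in LPS against vehicle, LPS + Dex against LPS, and LPS + Dex against vehicle. Circles are WT, triangles labelled AMPKα1-/-, and filled points passed the adjusted p of 0.05. In the middle panel Ccl5 and Ccl6 are the open points in both genotypes, and in the right panel Ccl5 lies at 6.41 and 6.92.

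Ccl5, also known as RANTES, measured 26.9, 21.4 and 20.9 FPKM with vehicle in WT, 4094 and 11277 FPKM with LPS, and 1495, 1145 and 4902 FPKM with LPS + Dex. The LPS + Dex libraries lay between vehicle and LPS, and the highest of them, replicate 3, exceeded the lower LPS library. Libraries labelled AMPKα1-/- held 10.4, 15.1 and 5.22 FPKM with vehicle, 2664, 2548 and 5011 FPKM with LPS, and 1034, 816.5 and 2423 FPKM with LPS + Dex. Here all 3 LPS + Dex libraries lay below all 3 LPS libraries. LPS raised Ccl5 by 8.15 ± 0.78 (SE) on the log2 scale in WT (adjusted p = 7.15e-10, limma) and by 8.27 ± 0.70 in the other genotype (adjusted p = 4.31e-11). The difference of LPS + Dex from LPS was −1.74 ± 0.78 in WT, with a 95% interval from −3.34 to −0.15 (unadjusted p = 0.0336, adjusted p = 0.0863, limma). The other genotype gave −1.35 ± 0.70, from −2.78 to 0.08 (adjusted p = 0.134). Without WT LPS + Dex replicate 3 the WT difference was −2.38 and was called (adjusted p = 0.0251). Ccl5 was called lower in both genotypes with the replicate block, though the WT numbers do not establish pairs. Fitted on the groups compared alone, the libraries labelled AMPKα1-/- gave an adjusted p of 0.0405. Against vehicle, Ccl5 remained higher by 6.41 ± 0.70 in WT (84.9-fold, adjusted p = 9.66e-09) and by 6.92 ± 0.70 (121.4-fold, adjusted p = 2.02e-09). With libraries left out, these differences from vehicle ranged from 5.77 to 6.82 in WT and from 6.46 to 7.24 in the other genotype.

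Expressed as the share of the LPS rise that was left with LPS + Dex, Ccl5 kept 32.5% ± 27.1 (SD, n = 3, range 14.6% to 63.7%) in WT and 41.6% ± 25.7 (SD, n = 3, range 23.7% to 71.0%) in the libraries labelled AMPKα1-/-. Leaving out WT LPS replicate 3 gave 61.2% in WT, and leaving out WT LPS + Dex replicate 3 gave 16.9%. Libraries labelled AMPKα1-/- gave 26.9% without LPS + Dex replicate 3. Read within a replicate number, LPS + Dex was 28.0% and 43.5% of LPS in WT and 38.8%, 32.1% and 48.4% in the other genotype. These within-number values lay inside the range over libraries in each genotype. Among the 47069 identifiers ordered by FPKM, Ccl5 ranked 3887 to 4629 in WT vehicle libraries, 6 and 11 with LPS, and 8 to 58 with LPS + Dex. Among those labelled AMPKα1-/- it ranked 5572 to 8418, 11 to 26 and 23 to 97. Of the summed level of the 10 members in WT, Ccl5 made up 3.55% to 6.14% with vehicle, 45.8% and 67.0% with LPS and 79.9% to 89.3% with LPS + Dex. In the other genotype the LPS + Dex share was 83.0% to 85.4%.

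**Figure D3:**
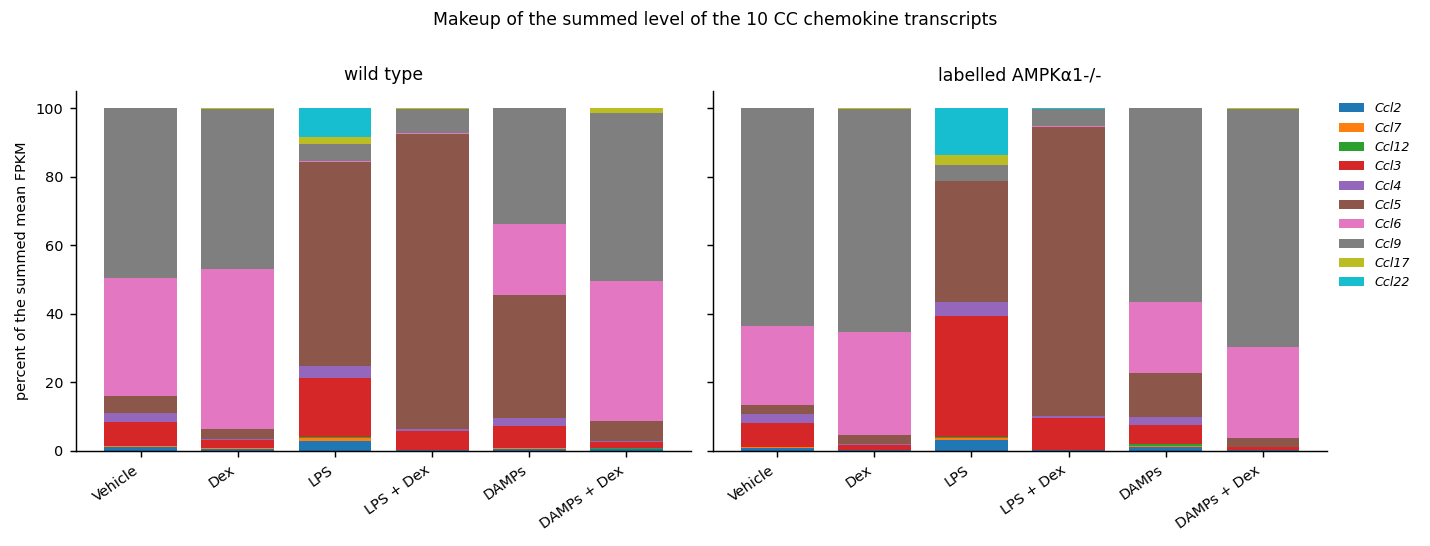
Share of each CC chemokine in the summed mean FPKM of the 10 (vertical axis, percent) under each treatment (horizontal axis), WT on the left and labelled AMPKα1-/- on the right. Ccl9 and Ccl6 fill most of the vehicle and Dex bars, and Ccl5 takes 79.9% or more of every LPS + Dex library.

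Ccl3 and Ccl4, the inflammatory chemokines of the same chromosome 11 group as Ccl5, were called lower with LPS + Dex than with LPS. Ccl3 (MIP-1α) measured 31.1, 25.6 and 39.7 FPKM with vehicle in WT, 2228 and 2223 FPKM with LPS, and 117.8, 51.1 and 336.6 FPKM with LPS + Dex. Libraries labelled AMPKα1-/- gave 32.1, 23.2 and 18.3 FPKM, then 2961, 1463 and 5784 FPKM, then 132.7, 74.3 and 271.3 FPKM. The 3 groups did not overlap in either genotype. LPS raised Ccl3 by 6.09 ± 0.57 in WT (adjusted p = 4.5e-10, limma) and 6.88 ± 0.51 in the other genotype (adjusted p = 2.96e-12). Dex lowered LPS-treated Ccl3 (−4.12 ± 0.57, adjusted p = 1.27e-06, and −4.39 ± 0.51, adjusted p = 5.21e-08) and left it above vehicle by 1.97 ± 0.51 (adjusted p = 0.00177) and 2.49 ± 0.51 (adjusted p = 0.000139). With libraries left out, its difference from vehicle ranged from 1.27 to 2.62 in WT and from 2.01 to 2.94 in the other genotype. The share of the rise left was 6.22% ± 6.81 (SD, n = 3) in WT and 3.99% ± 2.996 in the other genotype. It was 2.39% without WT LPS + Dex replicate 3, and in the other genotype 2.34% without LPS + Dex replicate 3 and 6.17% without LPS replicate 3. Within a replicate number the libraries labelled AMPKα1-/- kept 4.48% to 5.08% of the LPS level.

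Ccl4 (MIP-1β) measured 14.4, 8.29 and 13.6 FPKM with vehicle in WT, 286.2 and 639.2 FPKM with LPS, and 6.18, 1.23 and 31.9 FPKM with LPS + Dex. The LPS + Dex libraries straddled the vehicle libraries, with replicate 3 above and replicates 1 and 2 below all of them. Libraries labelled AMPKα1-/- gave 12.2, 11.003 and 3.60 FPKM, then 276.2, 301.5 and 630.1 FPKM, then 5.31, 4.45 and 10.3 FPKM. LPS raised it by 5.07 ± 0.67 (adjusted p = 2.86e-07, limma) and 5.38 ± 0.60 (adjusted p = 1.03e-08), and Dex lowered it (−5.73 ± 0.67, adjusted p = 8.97e-08, and −5.68 ± 0.60, adjusted p = 1.02e-08). The difference of LPS + Dex from vehicle was −0.66 ± 0.60 in WT (adjusted p = 0.365), and it became 0.27 without LPS + Dex replicate 2 and −1.67 without replicate 3 (adjusted p = 0.00968). The side of vehicle on which WT Ccl4 fell thus changed with 1 library.

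None of the 3 Ccr2 ligands was called higher with LPS + Dex than with vehicle. Ccl2 (MCP-1) measured 5.24, 3.55 and 5.35 FPKM with vehicle in WT, 380.9 and 323.6 FPKM with LPS, and 1.41, 0.398 and 2.10 FPKM with LPS + Dex. The other genotype gave 3.21, 3.49 and 1.59 FPKM, then 307.0, 259.4 and 310.3 FPKM, then 0.971, 0.797 and 1.02 FPKM. In both genotypes every LPS + Dex library lay below every vehicle library. LPS raised Ccl2 by 5.96 ± 0.33 (adjusted p = 9.14e-15, limma) and 6.32 ± 0.29 (adjusted p = 1.55e-16). Dex lowered it 161-fold (−7.33 ± 0.33, adjusted p = 3.29e-16) and 151.7-fold (−7.24 ± 0.29, adjusted p = 2.64e-17). Against vehicle, Ccl2 with LPS + Dex was lower in WT (−1.37 ± 0.29, adjusted p = 0.000267) and in the other genotype (−0.92 ± 0.29, adjusted p = 0.00859). The last of these was not called with libraries centred on one median (−0.64, adjusted p = 0.0912).

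Ccl7 (MCP-3), the gene next to Ccl2, measured 2.78, 0.743 and 1.06 FPKM with vehicle in WT, 120.8 and 94.1 FPKM with LPS, and 0.177, 0.203 and 0.654 FPKM with LPS + Dex. The values labelled AMPKα1-/- were 1.01, 0.818 and 0.237 FPKM, then 53.4, 95.5 and 48.0 FPKM, then 0.403, 0.136 and 0.0676 FPKM. LPS raised it by 5.49 ± 0.31 (adjusted p = 1.43e-14, limma) and 5.27 ± 0.28 (adjusted p = 2.05e-15), and Dex lowered it (−6.34 ± 0.31, adjusted p = 1.82e-15, and −5.74 ± 0.28, adjusted p = 1.13e-15). Its difference from vehicle with LPS + Dex was −0.85 ± 0.28 in WT (adjusted p = 0.0112), which was not called without vehicle replicate 1 (−0.51, adjusted p = 0.132) or after centring (−0.62, adjusted p = 0.0683). Ccl12 (MCP-5) measured 0.107, 0.468 and 0.885 FPKM with vehicle in WT, 21.0 and 43.1 FPKM with LPS, and 0, 0.640 and 0 FPKM with LPS + Dex. The other genotype gave 1.01, 0.215 and 0.186 FPKM, then 16.3, 20.2 and 11.1 FPKM, then 0.158, 0.321 and 0.106 FPKM. LPS raised it by 4.42 ± 0.41 (adjusted p = 3.57e-10, limma) and 3.53 ± 0.36 (adjusted p = 2.33e-09), and Dex lowered it (−4.72 ± 0.41, adjusted p = 3.35e-10, and −3.78 ± 0.36, adjusted p = 1.72e-09). The WT LPS + Dex libraries held 6 fragments of Ccl12 in all, so its level relative to vehicle cannot be resolved at this depth.

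Over the 35 libraries, Ccl2 and Ccl7 were each other's most similar gene among the 11354 tested (Pearson r = 0.981 on log2(FPKM + 1)), and Ccl7 was the gene most like Ccl12 (r = 0.942). Such correlations describe profiles that share the same treatments and libraries and carry no test. The gene most like Ccl3 was Bcl2a1d (r = 0.977), a relative of the anti-apoptotic Bcl2. The gene most like Ccl4 was Hcar2 (r = 0.968), a receptor for hydroxycarboxylic acids, and that most like Ccl5 was AW112010 (r = 0.961). Ccl22 was most like Ptgs2 (r = 0.990), which encodes cyclooxygenase-2, and Ccl17 was most like Runx3 (r = 0.967), a transcription factor, with Ccl22 at place 10 in its list (r = 0.941). Ccl6 was most like Sat1 (r = 0.957), a polyamine acetyltransferase, and Ccl9 had no close match, Tbrg1 being the nearest (r = 0.777). Ccl6 ran against Ccl5 (r = −0.797) and Ccl3 (r = −0.739).

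The Ccr4 ligands had the lowest mean vehicle levels of the 10. Ccl22 (MDC) measured 0.0414, 0.317 and 0.305 FPKM with vehicle in WT, 1132 and 1010 FPKM with LPS, and 1.19, 5.17 and 0.764 FPKM with LPS + Dex. Libraries labelled AMPKα1-/- gave 0.292, 0.0416 and 0.0361 FPKM, then 679.9, 865.1 and 2457 FPKM, then 0.768, 3.98 and 3.59 FPKM. The LPS + Dex libraries lay above every vehicle library and below every LPS library. LPS raised Ccl22 by 9.78 ± 0.43 (adjusted p = 8.72e-17, limma) and 9.98 ± 0.39 (adjusted p = 3.07e-18), the largest rises among the 10 members. Dex lowered it 372-fold (−8.54 ± 0.43, adjusted p = 4.65e-15) and 329.9-fold (−8.37 ± 0.39, adjusted p = 6.04e-16), leaving 0.201% ± 0.227 (SD, n = 3) and 0.199% ± 0.131 of the rise. That share was 0.0705% without WT LPS + Dex replicate 2, and 0.344% in the other genotype without LPS replicate 3. Its rank among all identifiers went from 64 and 91 with LPS to between 7887 and 10846 with LPS + Dex in WT. Against vehicle it stayed higher by 1.25 ± 0.39 in WT (adjusted p = 0.00833) and 1.62 ± 0.39 (adjusted p = 0.000834), and the WT call was lost without LPS + Dex replicate 2 (0.69, adjusted p = 0.123) and with only the groups compared in the fit (adjusted p = 0.0549).

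Ccl17 (TARC) measured 0.106, 0.464 and 0.293 FPKM with vehicle in WT, 302.5 and 288.9 FPKM with LPS, and 5.05, 5.29 and 8.67 FPKM with LPS + Dex. In the other genotype it measured 0.166, 0.106 and 0.0925 FPKM, then 192.2, 282.4 and 371.4 FPKM, then 1.96, 3.71 and 6.34 FPKM. Here too LPS + Dex lay between vehicle and LPS with no overlap. LPS raised it by 7.86 ± 0.33 (adjusted p = 1.97e-17, limma) and 7.93 ± 0.29 (adjusted p = 8.93e-19), and Dex lowered it (−5.37 ± 0.33, adjusted p = 2.04e-13, and −5.87 ± 0.29, adjusted p = 2.12e-15). It stayed above vehicle by 2.49 ± 0.29 (adjusted p = 3.98e-08) and 2.06 ± 0.29 (adjusted p = 8.46e-07), and 2.05% ± 0.686 (SD, n = 3) and 1.38% ± 0.780 of the rise was left.

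Ccl6 and Ccl9 were the 2 members with the highest vehicle levels, and Ccl6 alone was lowered by LPS. Ccl6 measured 173.4, 91.3 and 216.1 FPKM with vehicle in WT, 10.8 and 36.1 FPKM with LPS, and 10.98, 5.76 and 10.3 FPKM with LPS + Dex. Libraries labelled AMPKα1-/- gave 75.9, 87.7 and 79.1 FPKM, then 7.34, 10.6 and 7.83 FPKM, then 5.10, 5.22 and 3.61 FPKM. LPS lowered it 7.26-fold in WT (−2.86 ± 0.50, adjusted p = 1.83e-05, limma) and 8.63-fold in the other genotype (−3.11 ± 0.45, adjusted p = 7.79e-07). With libraries left out, the WT change with LPS ranged from −3.69 to −2.03. Against vehicle, LPS + Dex gave −3.96 ± 0.45 and −3.87 ± 0.45 (adjusted p = 1.89e-08 and 2.63e-08). LPS + Dex against LPS differed by −1.10 ± 0.50 in WT (adjusted p = 0.0902) and −0.76 ± 0.45 in the other genotype (adjusted p = 0.193). With the replicate block the libraries labelled AMPKα1-/- were called lower, as given above, and so was WT, where the numbers do not establish pairs. WT was called lower also without LPS replicate 2 (−1.93, adjusted p = 0.016). With libraries left out, the WT difference ranged from −1.93 to −0.28.

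Ccl9 (MIP-1γ) measured 205.0, 196.9 and 291.9 FPKM with vehicle in WT, 353.2 and 889.5 FPKM with LPS, and 232.5, 66.8 and 303.0 FPKM with LPS + Dex. The other genotype gave 215.3, 248.1 and 214.4 FPKM, then 411.6, 282.1 and 615.0 FPKM, then 64.2, 55.6 and 119.3 FPKM. LPS libraries lay above vehicle libraries in both genotypes, and LPS + Dex libraries lay below vehicle in the libraries labelled AMPKα1-/- but on both sides of it in WT. The LPS rise was 1.30 ± 0.46 in WT (2.46-fold, adjusted p = 0.019, limma), which was not called without LPS replicate 3 (0.63, adjusted p = 0.382) or vehicle replicate 2 (1.19, adjusted p = 0.0536). Among libraries labelled AMPKα1-/- it was 0.88 ± 0.41 (adjusted p = 0.0656), and was called with the replicate block (adjusted p = 0.0233), after centring (1.15, adjusted p = 0.0282) and without LPS replicate 2 (1.15, adjusted p = 0.0304). Dex lowered LPS-treated Ccl9 (−1.73 ± 0.46, adjusted p = 0.00414, limma, and −2.45 ± 0.41, adjusted p = 2.3e-05). The WT fall was not called without LPS replicate 3 (−1.07, adjusted p = 0.169), without LPS + Dex replicate 2 (−1.08, adjusted p = 0.0502) or when the LPS and LPS + Dex groups were fitted alone (adjusted p = 0.139). Against vehicle, the change with LPS + Dex was −1.57 ± 0.41 in the libraries labelled AMPKα1-/- (adjusted p = 0.00202) and −0.44 ± 0.41 in WT (adjusted p = 0.386).

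With Dex and no stimulus, most members were not called in the fit without the replicate block, and the counts in either direction there were near the background. In WT it raised Ccl17 and lowered Ccl4, and the other 8 were not called, beside a background of 15.9% higher and 14.9% lower. In the libraries labelled AMPKα1-/- it raised Ccl6 and Ccl17 and lowered Ccl2 and Ccl4, beside 11.9% higher and 16% lower. Most of these calls in the libraries labelled AMPKα1-/- were lost without the filter on low values. With the replicate block, Ccl3 was also called lower there (adjusted p = 0.022, limma) and Ccl9 higher (adjusted p = 0.0303), and no call was lost. In WT, where the numbers do not establish pairs, the block called 5 members in place of 2. The summary above thus rests on the fit without the block. Centring moved these splits of all genes from 1810 higher and 1696 lower to 1648 and 2011 in WT, and from 1356 and 1812 to 1734 and 1610 in the other genotype. Ccl17 went to 0.856, 2.31 and 2.27 FPKM in WT and 0.590, 1.84 and 0.734 FPKM in the other genotype, above every vehicle library. Its log2 change was 1.09 ± 0.29 (adjusted p = 0.00559, limma) and 0.82 ± 0.29 (adjusted p = 0.0346). The libraries held 51 fragments of Ccl17 with Dex and 8 with vehicle in WT, a ratio per library fragment of 6.59 (exact 95% interval 3.1 to 16.1, counting error only). The other genotype held 34 and 4, a ratio of 8.58 (3.06 to 33.3). Ccl4 went to 2.47, 1.80 and 2.004 FPKM in WT and to 2.29, 1.36 and 1.21 FPKM in the other genotype, below every vehicle library (−2.05 ± 0.60, adjusted p = 0.0106, limma, and −1.80 ± 0.60, adjusted p = 0.0251).

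Ccl2 with Dex measured 1.71, 2.09 and 4.04 FPKM in WT (−0.70 ± 0.29, adjusted p = 0.0711, limma) and 0.423, 1.23 and 0.394 FPKM in the libraries labelled AMPKα1-/- (−1.16 ± 0.29, adjusted p = 0.00361). Ccl3 measured 13.02, 11.8 and 16.03 FPKM in WT and 13.8, 8.004 and 6.33 FPKM in the other genotype, below every vehicle library in both genotypes. Its change of −1.17 ± 0.51 (adjusted p = 0.0805) and −1.33 ± 0.51 (adjusted p = 0.0507) was not called, but in the libraries labelled AMPKα1-/- it was with the replicate block (adjusted p = 0.022), and in both genotypes with only the groups compared in the fit (adjusted p = 0.00139 and 0.0073). Ccl6 rose to 157.8, 249.7 and 202.3 FPKM in those libraries (1.30 ± 0.45, adjusted p = 0.0299), while WT gave 402.0, 97.7 and 316.8 FPKM (0.62 ± 0.45, adjusted p = 0.297). Ccl9 measured 354.3, 524.1 and 458.1 FPKM in the libraries labelled AMPKα1-/-, above every vehicle library (0.96 ± 0.41, adjusted p = 0.0855, and 0.0303 with the replicate block). Several of these calls in the libraries labelled AMPKα1-/- rested on single libraries. Leaving out Dex replicate 2 ended those of Ccl4 (−1.74, adjusted p = 0.0714), Ccl6 (1.14, adjusted p = 0.112) and Ccl17 (0.57, adjusted p = 0.215), as did leaving out vehicle replicate 1 or 2. Dex replicate 3 ended those of Ccl4 and Ccl6, and vehicle replicate 3 those of Ccl6 and Ccl17.

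DAMPs raised a single member, Ccl5, in each genotype, beside a background of 1.22% higher and 0.793% lower in WT and of 1.89% and 2.24% in the other genotype. Ccl5 measured 108.5, 54.4 and 745.8 FPKM in WT and 54.5, 58.6 and 74.3 FPKM in the other genotype, above every vehicle library. The log2 change was 2.79 ± 0.70 (6.91-fold, adjusted p = 0.0313, limma) and 2.59 ± 0.70 (6.01-fold, adjusted p = 0.0268). The WT change was 1.70 without DAMPs replicate 3 (adjusted p = 0.444). It was not called either without vehicle replicate 1, 2 or 3 (adjusted p = 0.075, 0.088 and 0.117) or when only the groups compared were fitted (adjusted p = 0.376). For the libraries labelled AMPKα1-/-, leaving out any 1 of DAMPs replicates 1, 2 and 3 or vehicle replicates 1 and 3 ended the call, with changes of 2.21 to 2.68 and adjusted p of 0.0583 to 0.187. The other 9 members were not called with DAMPs. Their largest changes were 0.68 ± 0.36 for Ccl12 in WT (adjusted p = 0.606) and 0.93 ± 0.36 for Ccl12 in the other genotype (adjusted p = 0.193). WT DAMPs replicate 3 held the highest of the 3 WT DAMPs values for every member except Ccl17, which was 0 there.

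Dex on top of DAMPs lowered 4 members and raised 1 in WT, beside a background of 12.6% lower and 11.7% higher, and lowered 5 and raised 1 in the other genotype, beside 12.2% lower and 13.1% higher. Ccl2, Ccl3, Ccl4 and Ccl5 fell in both genotypes and Ccl7 in the libraries labelled AMPKα1-/-. Ccl4 measured 11.1, 10.3 and 41.2 FPKM with DAMPs in WT and 1.12, 0.859 and 1.56 FPKM with DAMPs + Dex, a change of −3.06 ± 0.60 (adjusted p = 0.000295, limma). Ccl3 fell from 40.9, 30.4 and 85.2 FPKM to 11.6, 5.51 and 10.9 FPKM (−2.29 ± 0.51, adjusted p = 0.00108). In the other genotype the changes of Ccl4 and Ccl3 were −2.83 ± 0.60 (adjusted p = 0.000666) and −2.39 ± 0.51 (adjusted p = 0.000658). Both genes were lower in every DAMPs + Dex library than in any DAMPs library. Ccl2 went from 3.15, 2.77 and 6.50 FPKM to 0.998, 1.98 and 2.23 FPKM in WT (−0.87 ± 0.29, adjusted p = 0.0295), which was not called without DAMPs replicate 3 (adjusted p = 0.217) or DAMPs + Dex replicate 1 (adjusted p = 0.158). It went from 3.37, 6.73 and 4.74 FPKM to 0.475, 0.727 and 0.370 FPKM in the other genotype (−1.93 ± 0.29, adjusted p = 1.01e-05). Ccl7 fell there as well (−1.07 ± 0.28, adjusted p = 0.00438), from 1.66, 1.93 and 1.87 FPKM to 0.515, 0.315 and 0.221 FPKM. Ccl5 fell from the values above to 41.0, 11.7 and 34.4 FPKM in WT (−2.64 ± 0.70, adjusted p = 0.00519) and to 10.9, 21.7 and 12.4 FPKM in the other genotype (−2.04 ± 0.70, adjusted p = 0.0308). Whether this differs from the effect of Dex on Ccl5 in LPS-treated cells was not tested. The WT change of Ccl5 was not called without DAMPs replicate 3 (−1.55, adjusted p = 0.0855) or DAMPs + Dex replicate 2 (−2.10, adjusted p = 0.0512). That of the other genotype was lost without DAMPs replicates 1, 2 or 3 or DAMPs + Dex replicates 1 or 3, singly, with changes of −2.13 to −1.85 and adjusted p of 0.0558 to 0.102.

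Ccl17 went the other way. It measured 0.372, 0.215 and 0 FPKM with DAMPs in WT and 5.40, 8.48 and 5.55 FPKM with DAMPs + Dex, a rise of 2.63 ± 0.29 (adjusted p = 6.38e-08, limma). In the other genotype it went from 0, 0 and 0.0679 FPKM to 2.65, 0.985 and 1.84 FPKM, a rise of 1.42 ± 0.29 (adjusted p = 0.000463). In fragments this was 6 against 224 in WT, a ratio of 34.9 (exact 95% interval 15.8 to 96), and 1 against 57 in the other genotype, a ratio of 72.5 (12.5 to 2.91e+03). Ccl17 was thus called higher with Dex in the absence of LPS in all 4 comparisons made, and lower with Dex in its presence in both. With DAMPs + Dex its WT level was in the range of WT LPS + Dex, 5.05 to 8.67 FPKM. Ccl22, its neighbour on chromosome 8, was at or below 0.477 FPKM in every library without LPS.

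**Figure D4:**
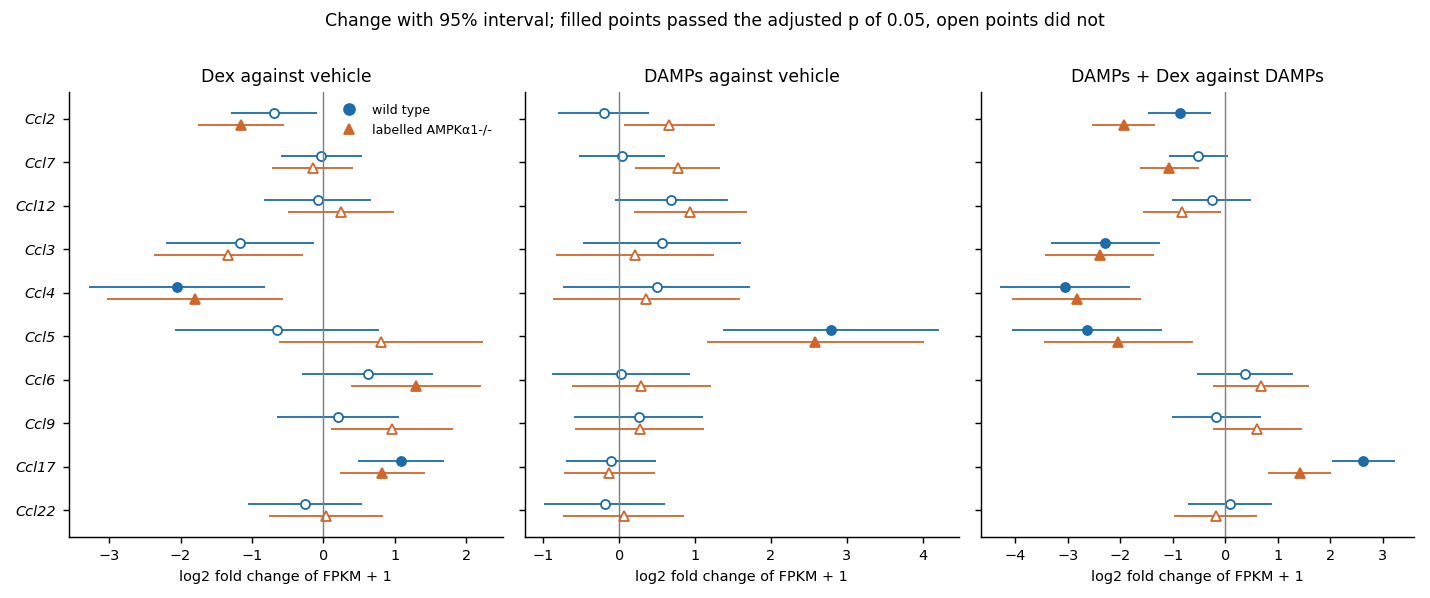
Log2 fold change of FPKM + 1 (horizontal axis) with its 95% interval for the 10 members (vertical axis) in Dex against vehicle, DAMPs against vehicle, and DAMPs + Dex against DAMPs. Circles are WT, triangles labelled AMPKα1-/-, and filled points passed the adjusted p of 0.05. Ccl17 lies to the right of 0 in both Dex panels, Ccl4 to the left, and Ccl5 is the filled pair in the DAMPs panel.

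None of the 10 members differed between vehicle libraries of the 2 genotypes at an adjusted p of 0.05 by limma, where 0.432% of all genes (49) did. The only member with an unadjusted p under 0.05 was Ccl2, at 5.24, 3.55 and 5.35 FPKM in WT and 3.21, 3.49 and 1.59 FPKM in the libraries labelled AMPKα1-/- (−0.63 ± 0.29, unadjusted p = 0.0418, adjusted p = 0.764). The difference in response between genotypes was tested as an interaction for LPS against vehicle, LPS + Dex against LPS, Dex against vehicle and DAMPs against vehicle. No gene was called in any of the 4 (0%) by limma, with 514, 311, 2441 and 66 genes at an unadjusted p under 0.05. That count depended on the filter on low values, without which 118, 75, 21 and 2 genes were called. Among the members the smallest was that of Ccl2 with DAMPs (0.87 ± 0.41, unadjusted p = 0.0457, adjusted p = 1). For Ccl5 the interaction in LPS + Dex against LPS was 0.39 ± 1.04, with a 95% interval from −1.75 to 2.53.

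Of 14 genes listed as CC chemokine receptors and related genes, 4 reached a mean of 1 FPKM. LPS raised 3 (Ccr7, Ccrl2 and Ccr1) and lowered 1 (Ccr2) in WT, and raised 2 (Ccr7 and Ccrl2) and lowered 1 (Ccr2) in the libraries labelled AMPKα1-/-, beside a background of 19.9% higher and 35.8% lower and of 20.2% and 44.1%. LPS + Dex against LPS lowered 3 and 2, and raised none, beside 17.5% and 18.4% of all genes lower. Ccr7 was at 37.5 FPKM or more in the LPS libraries and at most 1.28 FPKM in all others. Its passing of the filter thus leans on the group where it is high, so these receptor counts are partly set by the filter. Dex alone lowered Ccr1 and Ccr2 in both genotypes, beside 14.9% and 16% lower. Ccr2, the receptor of Ccl2, Ccl7 and Ccl12, measured 9.49, 4.46 and 9.29 FPKM with vehicle in WT, 0.971 and 2.197 FPKM with LPS, and 0.745, 0.717 and 0.838 FPKM with Dex. The change was −1.74 ± 0.48 with LPS (adjusted p = 0.00287, limma) and −2.25 ± 0.43 with Dex (adjusted p = 0.0002), and −2.27 ± 0.43 and −2.18 ± 0.43 in the libraries labelled AMPKα1-/- (adjusted p = 4.25e-05 and 0.000283). So while LPS raised its 3 ligands, Ccr2 was lower with either agent. Ccr7, which guides cells towards lymph nodes by binding Ccl19 and Ccl21, rose from at most 0.0602 FPKM to 37.5 and 109.9 FPKM with LPS in WT (5.98 ± 0.26, adjusted p = 3.79e-17), and measured 0.861, 0.439 and 1.28 FPKM with LPS + Dex (−5.16 ± 0.26, adjusted p = 2.86e-15). Ccrl2, an atypical receptor that binds chemerin, rose by 3.43 ± 0.31 (adjusted p = 2e-10) in WT and 4.33 ± 0.27 (adjusted p = 1.26e-13) in the other genotype with LPS, and fell when Dex was added (−2.60 ± 0.31, adjusted p = 9.67e-08, and −2.81 ± 0.27, adjusted p = 2.37e-09). Ccr1 rose by 0.79 ± 0.27 with LPS in WT (adjusted p = 0.0157) and was lower with Dex alone (−1.08 ± 0.25, adjusted p = 0.00134). Ccr4, the receptor of Ccl17 and Ccl22, had a mean of 0.333 FPKM, below the filter, and was at 0 in 22 of 35 libraries.

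**Figure D5:**
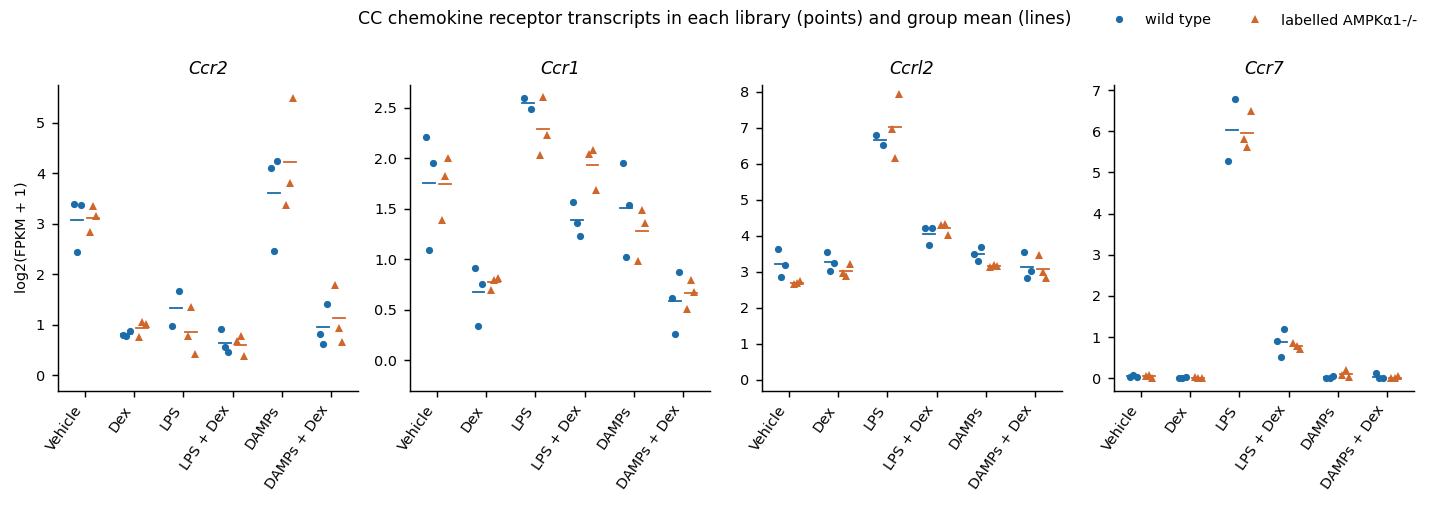
Levels of 4 CC chemokine receptor transcripts as log2(FPKM + 1) (vertical axis) under the 6 treatments (horizontal axis), with 1 point per library, circles WT and triangles labelled AMPKα1-/-, and a line at each group mean. Ccr2 is at most 2.46 FPKM in every Dex-treated library, and Ccr7 is at 37.5 FPKM or more in every LPS library and at most 1.28 FPKM in all others.

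Of 11 other CC chemokine symbols, 4 reached the filter, and Ccl1, Ccl11, Ccl19, Ccl20, Ccl21a, Ccl26 and Ccl28 did not exceed 0.454 FPKM in any library. Ccl25, a ligand of Ccr9, rose with LPS from 4.38, 3.01 and 2.93 FPKM to 10.8 and 9.76 FPKM in WT (1.36 ± 0.16, adjusted p = 5.31e-08, limma) and was lower when Dex was added (−0.50 ± 0.16, adjusted p = 0.018), at 7.61, 7.62 and 5.78 FPKM. The other genotype gave 1.34 ± 0.15 (adjusted p = 6.19e-09) and −0.42 ± 0.15 (adjusted p = 0.0221). Ccl24 (eotaxin-2) fell with LPS (−0.87 ± 0.20, adjusted p = 0.00049, and −1.27 ± 0.18, adjusted p = 4.46e-07). With Dex alone it measured 4.02, 3.61 and 2.74 FPKM in the libraries labelled AMPKα1-/-, against 2.21, 1.59 and 1.18 FPKM with vehicle. It was the 1 gene of the 4 called higher there, beside 11.9% of all genes, and none of the 4 was called with Dex alone in WT. Ccl8 (MCP-2) was lower with DAMPs + Dex than with DAMPs in WT (−1.37 ± 0.50, adjusted p = 0.0471), where DAMPs replicate 3 held 20.4 FPKM and the other two 3.08 and 2.58 FPKM, and in the other genotype (−2.18 ± 0.50, adjusted p = 0.00157). Ccl27a was not called in any comparison, and its values, from 0 to 17.2 FPKM, are uncertain because near-identical gene copies could share its reads.

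Other lists put these changes beside the pathways that LPS and Dex are known to act on. Of 10 genes for NF-κB subunits and feedback inhibitors, LPS raised 8 and lowered 1 in each genotype, with a median log2 change of 1.70 in WT, beside a background of 19.9% higher and 35.8% lower in WT and 20.2% and 44.1% in the other genotype. Tnfaip3 (A20) rose by 3.71 ± 0.23 in WT (adjusted p = 7.51e-14, limma), Nfkbia (IκBα) by 3.65 ± 0.13 (adjusted p = 4.24e-19) and Nfkbiz by 2.54 ± 0.29 (adjusted p = 1.68e-08). The libraries labelled AMPKα1-/- gave 3.60 ± 0.20, 3.42 ± 0.11 and 2.28 ± 0.26. LPS + Dex against LPS lowered 6 of the 10 in WT and 7 in the other genotype and raised none, with a WT median of −0.88, beside 17.5% of all genes lower in WT and 18.4% in the other genotype. The largest WT falls were those of Nfkb2 (−1.55 ± 0.25, adjusted p = 1.5e-05), Nfkb1 (−1.29 ± 0.15, adjusted p = 9.16e-08) and Rel (−1.20 ± 0.24, adjusted p = 0.000208). In the other genotype they were those of Nfkb2 (−1.42 ± 0.22, adjusted p = 8.91e-06), Nfkbib (−1.19 ± 0.18, adjusted p = 4.37e-06) and Rel (−1.04 ± 0.21, adjusted p = 0.000248).

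Of 11 known glucocorticoid-induced genes, Dex raised 9 in WT and 10 in the libraries labelled AMPKα1-/- on top of LPS, and lowered none, beside 16.6% of all genes higher in WT and 19.3% in the other genotype. Tsc22d3 (GILZ) rose by 5.91 ± 0.17 and 5.58 ± 0.15 (adjusted p = 2.62e-20 and 1.27e-20, limma), Fkbp5 by 5.55 ± 0.18 and 5.40 ± 0.16 (adjusted p = 5.18e-19 and 4.76e-20) and the metallothionein Mt2 by 3.96 ± 0.38 and 3.58 ± 0.34 (adjusted p = 2.39e-09 and 1.21e-09). LPS alone raised 3 and lowered 4 of the list in WT, and raised 3 and lowered 5 in the other genotype, near the background of 19.9% higher and 35.8% lower in WT and 20.2% and 44.1% in the other genotype. Its largest WT changes were those of Tsc22d3 (−3.78 ± 0.17, adjusted p = 9.06e-17), Anxa1, annexin A1 (−3.52 ± 0.24, adjusted p = 1.07e-12) and Cd163 (−2.24 ± 0.35, adjusted p = 3.07e-06).

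Of 8 factors that control the decay of cytokine transcripts, LPS + Dex against LPS raised 2 and lowered 2 in WT, and raised 1 and lowered 2 in the libraries labelled AMPKα1-/-, near the background of 16.6% higher and 17.5% lower in WT and 19.3% and 18.4% in the other genotype. Zfp36l2 rose by 1.46 ± 0.24 (adjusted p = 1.95e-05, limma) and 1.73 ± 0.22 (adjusted p = 1.92e-07), and Zfp36 (tristetraprolin) fell (−1.05 ± 0.29, adjusted p = 0.00523, and −0.79 ± 0.26, adjusted p = 0.0168). Zc3h12a (regnase-1) fell in both genotypes too (−0.89 ± 0.26, adjusted p = 0.00819, and −0.75 ± 0.23, adjusted p = 0.011), and Zfp36l1 rose by 1.03 ± 0.32 in WT (adjusted p = 0.0123). LPS against vehicle raised 2 and lowered 3 in WT and raised 1 and lowered 3 in the other genotype, near the background of 19.9% higher and 35.8% lower in WT and 20.2% and 44.1% in the other. In WT it lowered Zfp36l1 (−3.26 ± 0.32, adjusted p = 1.06e-09, limma) and Zfp36l2 (−2.79 ± 0.24, adjusted p = 1.08e-10) and raised Zc3h12a by 2.44 ± 0.26 (adjusted p = 5.7e-09).

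Of 10 genes of STAT6 signalling and alternative macrophage activation, a setting in which Ccl17 and Ccl22 are also known to be induced, 7 were tested. LPS raised 2 and lowered 4 in each genotype. Socs1 rose by 6.90 ± 0.25 in WT (adjusted p = 1.37e-18, limma), while Mrc1, the mannose receptor, and Pparg fell (−6.76 ± 0.20, adjusted p = 1.39e-20, and −4.48 ± 0.24, adjusted p = 4.05e-15). LPS + Dex against LPS raised 1 and lowered 2 in each genotype. With 7 genes these counts lie near the background given above for both comparisons. Klf4 rose by 2.75 ± 0.24 in WT (adjusted p = 3.12e-10), and Socs1 (−2.67 ± 0.25, adjusted p = 2.21e-09) and Il4ra (−0.73 ± 0.15, adjusted p = 0.000441) fell. With Dex alone 3 of the 7 were higher and 1 lower in WT, beside 15.9% of all genes higher and 14.9% lower. In the libraries labelled AMPKα1-/- 3 were higher and 2 lower, beside 11.9% higher and 16% lower.

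Markers of macrophages and of other cell types moved with some treatments. Of the 8 macrophage markers LPS raised 3 and lowered 4 in each genotype. The background was 19.9% higher and 35.8% lower in WT, and 20.2% and 44.1% in the other genotype. Cd68 changed by −3.02 ± 0.24 and −2.57 ± 0.21, Cd14 by 2.91 ± 0.27 and 2.92 ± 0.24, and Fcgr1 by 2.01 ± 0.39 and 2.24 ± 0.35. LPS + Dex against LPS raised 3 and lowered 2 in each genotype. The background there was 16.6% higher and 17.5% lower in WT, and 19.3% and 18.4% in the other genotype. Mertk changed by 1.06 ± 0.21 and 1.31 ± 0.19, Fcgr1 by −2.22 ± 0.39 and −2.03 ± 0.35, Lyz2 by 1.02 ± 0.24 in WT, and Cd14 by −0.95 ± 0.24 in the other genotype. S100a8, a calgranulin of neutrophils that macrophages can also make, was the most abundant of 6 neutrophil markers by the mean over all libraries. The summed level of the 6 was 478.3 to 1148 FPKM in WT LPS + Dex libraries against at most 28.6 FPKM in the WT LPS libraries. In the other genotype it was 303.8 to 582.8 FPKM against at most 47.6 FPKM. S100a8 rose by 5.28 ± 0.54 (adjusted p = 7.7e-09, limma) and 3.92 ± 0.48 (adjusted p = 1.51e-07) with LPS + Dex against LPS. Its partner S100a9, the only other marker of the 6 that was tested, was at 16.4 FPKM or less in every library and was not called (−0.91 ± 0.76, adjusted p = 0.387, and −0.58 ± 0.68, adjusted p = 0.548). The defining neutrophil markers Ly6g, Elane, Mpo and Cxcr2 did not exceed 0.475 FPKM in any library. Fibroblast markers summed to 0.655 to 14.8 FPKM, with Col1a1 the most abundant by the mean over all libraries. Their sum was 11.4 and 13.7 FPKM in WT LPS libraries and 2.29 to 7.29 FPKM in WT LPS + Dex libraries, while WT vehicle libraries spanned 0.666 to 11.5 FPKM, and Dcn (decorin) was called higher with LPS (1.82 ± 0.26 in WT, adjusted p = 8.97e-07). Dendritic cell markers, none with a mean of 1 FPKM in these groups, summed to 1.18 and 1.94 FPKM in WT LPS libraries. The sums were 0.347 to 0.792 FPKM with vehicle and 0.393 to 0.572 FPKM with LPS + Dex. In the other genotype they were 0.973 to 1.29 FPKM with LPS, 0.3255 to 0.674 FPKM with vehicle and 0.247 to 0.351 FPKM with LPS + Dex. The part of any of these markers in the chemokine levels was not tested.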

How the data were processed

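BMDM RNA was extracted with TRIzol and sequenced by a provider on a NovaSeq platform according to the study's methods, giving 35 libraries. The authors deposited FPKM values for 47069 Ensembl identifiers per library. The submitters' processing notes name Bowtie2 2.2.3, TopHat2 2.0.12, HTSeq 0.6.1, DESeq2 and GRCm38 (mm10), without their order or role. GENCODE release M21 gave a symbol to 46574 identifiers. FPKM are not counts. Library totals were read from the steps of low values, and for the low genes used, 55.3% to 63.9% of values per library were then whole numbers of fragments (tolerance 0.001). For a length of 1 kb, 1 fragment gave 0.0313 to 0.0631 FPKM. Gene lengths used by the authors differed from M21 for some members (Ccl5, 600 against 960 bases). Replicates of a group correlated at 0.987 to 0.997 across genes (log2(FPKM + 1)).

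Genes with a mean of at least 1 FPKM over the 35 libraries (11354) were fitted on log2(FPKM + 1) with limma 3.58.1 in R 4.3.3, as 12 groups with 1 shared spread and trended empirical Bayes, so that WT LPS with 2 libraries takes its spread from all groups. Tests were 2-sided with Benjamini-Hochberg adjustment at 0.05, and the procedure was tested on simulated data. The share of the rise left is (LPS + Dex minus vehicle) divided by (LPS minus vehicle), from group means and each LPS + Dex library. P-values measure the spread between cultures and libraries, which the labels do not tie to animals.

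Genes named are the 10 members, every other CC chemokine and receptor that reached the filter (apart from an item not reported here), up to 3 genes of each other list with the largest called change in LPS against vehicle and in LPS + Dex against LPS, cell type markers, Prkaa1, and for each member the most correlated gene and any other member among its 10 nearest. Ccr4, Dcn and the chemokines below the filter were added after their values were seen. The members and all lists were chosen with earlier results of these data known. Whether replicate numbers pair libraries was judged from how same-numbered libraries deviated from their group means (correlation over genes). In the libraries labelled AMPKα1-/- every pair passed 0.1 for LPS and vehicle (0.24, 0.12, 0.32), LPS + Dex and LPS (0.37, 0.38, 0.36), LPS + Dex and vehicle (0.25, 0.33, 0.36) and Dex and vehicle (0.30, 0.22, 0.40). This failed for DAMPs and vehicle (0.45, 0.22, 0.02) and DAMPs + Dex and DAMPs (−0.49, 0.13, −0.17). Libraries were taken as pairs in the first 4 on this evidence alone, as no label explains the numbers. Fits were repeated with a replicate block, with libraries centred on one median, with only the groups compared, with a pseudocount of 0.1, with a filter at 5 FPKM or without a filter, and with libraries left out. Tables and figures used Python 3.11.15, numpy 2.4.6, pandas 2.3.3 and matplotlib 3.10.9.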

Additional observations from a re-analysis of the deposited data

How the results depend on the processing

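With the other pseudocount, filters, scaling, fits and the replicate block, 451 values of a member's log2 change kept their direction and their side of the threshold, 15 lost and 23 gained a call, and none reversed. With libraries left out, either singly or replicate 1 of all groups at once, 504 kept both, 48 lost and 8 gained a call, and 1 reversed. The reversal was that of Ccl4 for LPS + Dex against vehicle in WT (−0.66, range −1.67 to 0.27), which became 0.27 without LPS + Dex replicate 2. The cause was not tested.

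Without the filter on low values, Ccl5 was not called with DAMPs, so that 0 members were called in WT (adjusted p = 0.0743) and 0 in the libraries labelled AMPKα1-/- (adjusted p = 0.071). Dex against vehicle called 1 member there in place of 4, the genotypes differed in 92 genes with vehicle (49 with the filter), and interactions were called for 118, 75, 21 and 2 genes (LPS, LPS + Dex against LPS, Dex, DAMPs). A mean of at least 5 FPKM left 27 genes between genotypes. Centring called 4 genes for the Dex interaction. With only the groups compared, LPS + Dex against LPS in WT called 2065 genes (3871 in the shared fit), DAMPs against vehicle in WT 1 gene (228) and 0 members, DAMPs + Dex against DAMPs in WT 3 members (5), the genotype comparison 19 genes and the Dex interaction 3.

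With the replicate block, Dex against vehicle in WT called 5 members in place of 2 and the LPS interaction 5 genes in place of 0. WT numbers share only a number, since their correlations fell below 0.1 in part, or, for LPS + Dex and LPS, only 2 pairs exist (0.11 and 0.43). There the block called Ccl5 (−1.79, adjusted p = 0.023) and Ccl6 (−1.30, adjusted p = 0.000396) lower, and in Dex against vehicle Ccl2 (adjusted p = 0.0336), Ccl3 (adjusted p = 0.0405) and Ccl6 (adjusted p = 0.0437). Ccl6 in DAMPs + Dex against DAMPs labelled AMPKα1-/- was also called (0.68, adjusted p = 0.0318), where the numbers are not pairs (correlations −0.49, 0.13 and −0.17). Beside these and the calls given with the results, the block changed no call of a member.

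Leaving out single libraries moved the number of genes called over these ranges: DAMPs against vehicle 26 to 372 in WT (228 with all) and 267 to 453 labelled AMPKα1-/- (469), DAMPs + Dex against DAMPs labelled AMPKα1-/- 2249 to 2641 (2871), Dex against vehicle in WT 2440 to 3201 (3506), genotypes with vehicle 28 to 58, and the interactions of Dex 0 to 1, LPS 0 to 13 and LPS + Dex 0 to 2. Members called ranged over 0 to 1 with DAMPs in each genotype, 3 to 5 for DAMPs + Dex in WT, 2 to 3 for Dex in WT and 1 to 5 labelled AMPKα1-/-. Without replicate 1 of any group these gene counts were 2, 137, 1831, 2248 and 14, and Dex in WT called 1 member. The share of the rise left ranged over 16.9% to 61.2% for Ccl5, 2.39% to 8.89% for Ccl3 and 0.0705% to 0.276% for Ccl22 in WT, −1.50% to −0.524% for Ccl7 in WT, and, labelled AMPKα1-/-, 26.9% to 54.5% for Ccl5, 2.34% to 6.17% for Ccl3, −2.72% to −0.0344% for Ccl12, −0.838% to −0.508% for Ccl2, 0.154% to 0.344% for Ccl22, −1.10% to −0.500% for Ccl7 and −121.0% to −50.9% for Ccl9. Depth limits the low values of Ccl7, Ccl12, Ccl17 and Ccl22. The DAMPs libraries labelled AMPKα1-/- held 1 fragment of Ccl17. The replicate numbers of WT LPS are 2 and 3 only, and each WT LPS value rests on these 2 libraries.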
